A study of Mus musculus with 11 samples.

Results

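The 10 genes described here encode the protein-folding machinery of the mitochondrial matrix and the proteins that fuse and divide mitochondria. The first group holds *Hspa9*, *Hspd1*, *Hspe1*, *Dnaja3* and *Lonp1*, and the second *Mfn1*, *Mfn2*, *Opa1*, *Dnm1l* and *Fis1*. They were taken by name from the table of counts, in which 26462 entries give 24849 genes once entries of the same name are summed. The 10 members come from 11 entries, because *Mfn2* has 2, and all 10 passed the filter on low counts in every comparison.

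RNA was measured in AML12, a line of mouse hepatocytes that serves as a cell model of the liver. The WT cells (3 libraries, WT 5-6, WT 7 and WT 8) are the parental line, and all libraries hold polyadenylated RNA. In the KO cells (4 libraries) *Txndc5* was targeted with CRISPR/Cas9 and repair plasmids and stable clones were selected with puromycin, and the labels call this genotype a knockdown. In the KI cells (4 libraries) TXNDC5 was to be overexpressed from the ROSA26 safe harbour, a genotype the labels call a knockin. Whether each derived line is 1 clone, and whether its libraries come from separate cultures, is not given in the sources used here, so the p-values measure the spread between these libraries, which may be technical. The question that bears on these genes is what happens to the mitochondrial partners of TXNDC5, a protein of the endoplasmic reticulum that the title of the series pairs with HSPA9, when it is absent.

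*Txndc5* itself was counted 364, 287, 430 and 408 times in the KO libraries, 3299, 3429 and 4046 in the WT libraries and 5654, 6511, 6723 and 5344 in the KI libraries. Scaled to counts per 1000000 of the library size (CPM, with edgeR's TMM factors over all 11 libraries), that is 10.2 ± 1.90 in the KO (SD, n = 4), 143 ± 4.37 in the WT (SD, n = 3) and 169 ± 10.3 in the KI cells (SD, n = 4). It was 14.1-fold lower in the KO than in the WT cells (edgeR adjusted p = 4.09e-08), whereas the KI cells did not pass the test against the WT (log2 fold change 0.24 ± 0.12 (SE), edgeR adjusted p = 0.136), so that the counts do not check the KI label. Total counts per library lay between 29840366 and 38422243. Of the 13 hepatocyte markers looked at, *Cyp2e1* and *Apoa2* had at most 3 counts in every library, while *Alb*, *Ttr*, *Trf*, *Apob*, *Hnf4a*, *Krt8* and *Krt18* were expressed. *Ahsg* reached at most 0.0807 CPM in the WT and 0 CPM in the KI libraries, and *Tat* at most 0.535 and 0.951 CPM. *Apoa1* reached at most 1.98 CPM in the WT and 1.13 CPM in the KI libraries, and *Fgb* 9.18 and 1.60 CPM. In the KO libraries *Ahsg*, *Tat*, *Apoa1* and *Fgb* reached at most 5.57, 1.57, 28.2 and 4.74 CPM. The 13 together summed to 9753 to 11597 CPM in the KO, 7385 to 9431 CPM in the WT and 8563 to 10142 CPM in the KI libraries. Of the 11 tested in the KO against the WT 6 rose, among them *Alb* from 513 to 4115 CPM. The 3 that fell were *Ttr* (826 to 438 CPM), *Trf* (2975 to 1346 CPM) and *Fgb* (7.36 to 3.63 CPM). Of the 5 biliary markers *Epcam* had at most 3 counts in every library, and the others were expressed and summed to 1339 to 1504 CPM in the KO, 2974 to 4379 CPM in the WT and 2604 to 3083 CPM in the KI libraries. Against the WT, *Krt7* (log2 fold change -3.40), *Spp1* (2520 to 246 CPM) and *Sox9* (46.5 to 34.1 CPM) fell in the KO cells and *Krt19* rose (770 to 1097 CPM). The 7 stellate and fibroblast markers summed to at most 1.15 CPM in any library and the 5 endothelial ones to at most 0.425 CPM. The 5 macrophage markers summed to 6.73 to 9.20 CPM in the WT, 1.32 to 2.21 CPM in the KO and 2.52 to 5.66 CPM in the KI libraries, and the part of these markers in the results below was not tested.

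Most mitochondrial proteins are made in the cytosol and enter the matrix unfolded. HSPA9, the mitochondrial member of the Hsp70 family, pulls them in and starts to fold them with the help of its J-domain partner DNAJA3, and the barrel of HSPD1 with its lid HSPE1 completes the folding, while the LONP1 protease degrades what fails. Mitochondria are fused by the mitofusins MFN1 and MFN2 in the outer membrane and by OPA1 in the inner membrane, and they are divided by DNM1L, a cytosolic dynamin that is recruited to outer membrane receptors, FIS1 among them. MFN2 also sits at contacts between mitochondria and the endoplasmic reticulum. Hepatocytes hold many mitochondria and depend on them for fatty acid oxidation.

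In the KO cells 6 of the 10 members rose against the WT (*Dnaja3*, *Hspd1*, *Mfn2*, *Opa1*, *Lonp1* and *Dnm1l*) and 1 fell (*Fis1*), by edgeR (quasi-likelihood F test, p-values adjusted over all genes tested by Benjamini-Hochberg). Over all 13359 genes, 26.7% rose and 28.4% fell in the same test, and the median log2 fold change was 0.40 over the members and -0.03 over all genes. In the KI cells 2 members rose against the WT (*Hspd1* and *Dnaja3*) and none fell, where 21.2% of all genes rose and 21.0% fell. Before adjustment edgeR placed 1 member under the limit of 0.05 on the lower side, *Lonp1*, which DESeq2 called. Between the derived lines, 6 members were higher in the KO than in the KI cells (*Dnaja3*, *Lonp1*, *Opa1*, *Mfn2*, *Mfn1* and *Dnm1l*) and 2 were lower (*Fis1* and *Hspe1*), where 27.0% of all genes were higher and 27.0% lower. The KO and KI comparisons with the WT share the 3 WT libraries and are therefore given side by side. In bulk RNA, fewer cells that express a gene and less RNA of it per cell cannot be told apart.

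**Figure D1:**
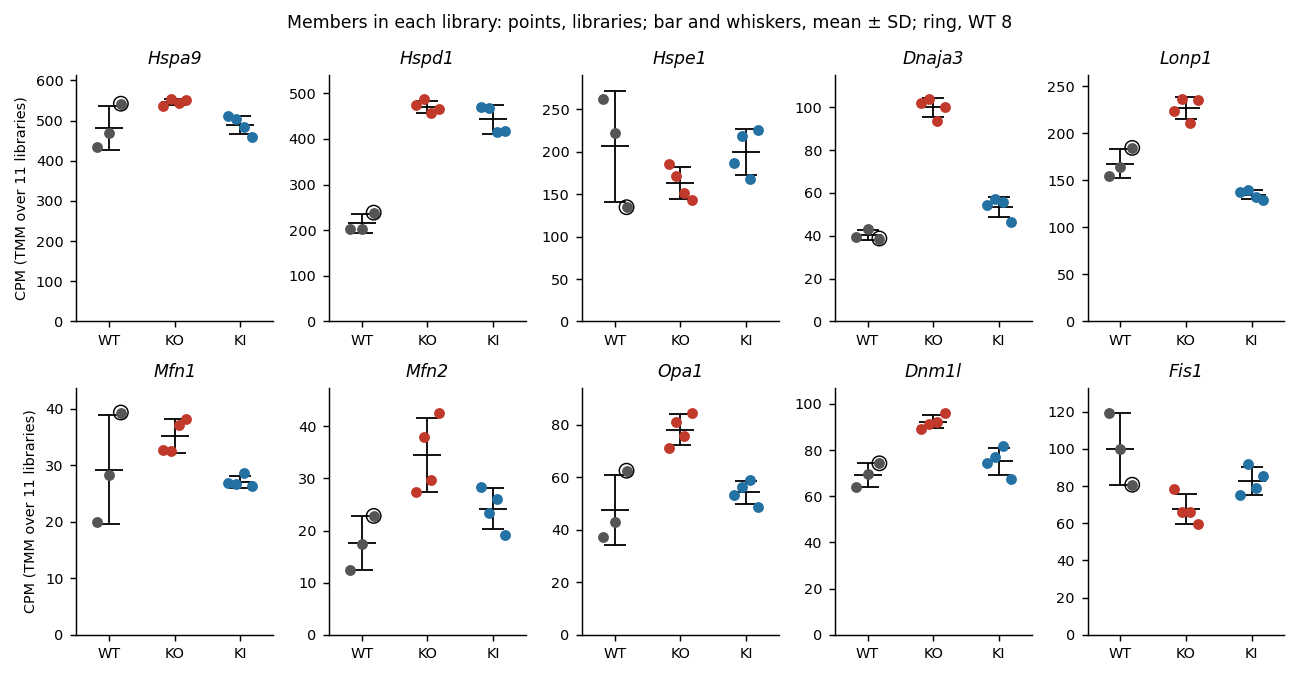
Level of each member in CPM (TMM factors over all 11 libraries) in the WT, KO and KI libraries, with 1 point per library, the mean and SD as bar and whiskers, and a ring around WT 8. The KO libraries of *Dnaja3* (93.7 to 104 CPM) and of *Hspd1* (456 to 487 CPM) lie above all WT libraries, while WT 8 lies nearest to the KO libraries in *Mfn2*, *Opa1* and *Fis1*.

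*Hspa9*, on chromosome 18 (chr18:34937414-34954357, minus strand, GENCODE M21 on GRCm38), encodes the chaperone named beside TXNDC5 in the title of the series. It had 535, 553, 544 and 551 CPM in the KO libraries, 435, 468 and 542 CPM in the WT libraries and 512, 503, 483 and 460 CPM in the KI libraries. The KO libraries lay within a narrow range, and WT 8 reached it while the other 2 WT libraries did not. The fold change was small in every comparison. Its log2 value was 0.16 ± 0.13 in the KO against the WT (SE, 95% interval -0.12 to 0.44, edgeR adjusted p = 0.307) and 0.02 ± 0.14 in the KI against the WT (95% interval -0.28 to 0.33, edgeR adjusted p = 0.913). No KO library overlapped the KI libraries, yet the difference of 0.16 ± 0.08 did not pass (edgeR adjusted p = 0.0920), while DESeq2 (adjusted p = 0.0421) and edgeR with library totals (adjusted p = 0.0279) called it. Without WT 8 the KO value was 0.28 and passed (edgeR adjusted p = 0.0343). With library totals, under which the median of all genes was 0.38, it was 0.56 and passed (edgeR adjusted p = 0.0102). The interval of the main fit leaves room for a level in the KO cells up to 0.44 above and 0.12 below that of the WT on the log2 scale. Over the 11 libraries, the genes whose log2 level moved most like that of *Hspa9* among 12802 tested genes were *Hgs*, *Elovl5* and *Carhsp1*, with root mean square differences of 0.057, 0.064 and 0.070, and each of these is a gene that varied little between the lines.

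*Dnaja3*, the J-domain co-chaperone of HSPA9, showed the largest rise among the members in the KO cells. It lies on chromosome 16 (chr16:4639989-4707695, plus strand). Its levels were 102, 104, 93.7 and 100 CPM in the KO, 39.5, 43.0 and 38.7 CPM in the WT and 54.2, 57.2, 55.9 and 46.7 CPM in the KI libraries. The 3 groups did not overlap, with the KI cells between the WT and the KO. The KO cells had 2.44-fold the WT level (log2 fold change 1.28 ± 0.11, edgeR adjusted p = 7.44e-06) and 1.87-fold the KI level (0.90 ± 0.09, edgeR adjusted p = 6.99e-07). The KI cells had 1.32-fold the WT level (0.40 ± 0.13, edgeR adjusted p = 0.0289). That call was lost without WT 5-6, WT 7, KI 5, KI 6 or KI 7 and with the library numbers fitted as a replicate block (edgeR adjusted p between 0.0513 and 0.0878). The profiles most like that of *Dnaja3* were those of *Mesd*, *Cntrl* and *Klhl42*, with root mean square differences of 0.067, 0.095 and 0.098. A total of 160 exon bases of *Dnaja3* transcripts in GENCODE are shared with *Vasn* on the same strand and 153 with *Coro7* on the other, out of 3912, and strand was not stated for the counting, so that some reads could be assigned either way.

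*Hspd1* and *Hspe1* encode the barrel and the lid of 1 folding chamber and lie head to head on chromosome 1. *Hspd1* (chr1:55077835-55088243) runs on the minus strand and *Hspe1* (chr1:55088132-55091307) on the plus strand, and their promoter windows overlap. RefSeq (GRCm38.p6) places a start of *Hspd1* 216 bases before the start of *Hspe1*, and a further one 95 bases after it, inside *Hspe1*. The space between them holds a heat shock element, the sequence bound by heat shock factors, which is read from both sides. It is shown because both genes have it in their upstream windows, as 30 bases at chr1:55088053-55088082 on the strand of each gene, with the GAA and TTC blocks in capitals.
Hspe1, plus strand: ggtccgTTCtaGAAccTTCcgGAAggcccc
Hspd1, minus strand: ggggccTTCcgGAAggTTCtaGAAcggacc

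The 18 bases of this element lie 89 to 72 bases before the RefSeq start of *Hspe1* and 144 to 127 bases before the first named start of *Hspd1*. A run of 3 alternating blocks, GAANNTTCNNGAA or TTCNNGAANNTTC on the other strand, occurs in 0.466% of the 32851 windows of 250 bases before RefSeq starts. Windows of 9 members were available but none of *Hspa9*, which was therefore not searched for this or the other elements. Of the 9, those of *Hspd1* and *Hspe1* are the ones with a match. The shorter GAANNTTC, which is contained in it and reads alike on both strands, occurs in 6.69% of all windows and among the members again in these 2 genes alone. The CHOP-ATF4 element TGATGNAA (TTNCATCA on the other strand) is in 3.45% of all windows and in none of the 9 members, which says only that these letters are not in the windows searched.

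The pair moved apart in both derived lines. *Hspd1* had 474, 487, 456 and 466 CPM in the KO, 204, 203 and 239 CPM in the WT and 471, 468, 416 and 417 CPM in the KI libraries. All 8 libraries of the derived lines lay above the 3 WT libraries, at 2.16-fold the WT level in the KO (log2 fold change 1.11 ± 0.12, edgeR adjusted p = 3.15e-05) and at 2.06-fold in the KI cells (1.04 ± 0.14, edgeR adjusted p = 0.000108). Between the KO and KI cells the difference was 0.09 ± 0.08 (95% interval -0.08 to 0.27, edgeR adjusted p = 0.349). *Hspe1* had 186, 172, 151 and 144 CPM in the KO, 262, 222 and 135 CPM in the WT and 187, 218, 168 and 226 CPM in the KI libraries. The WT libraries spanned the range of the other 8, with WT 8 the lowest of all 11, and the fold changes against the WT were -0.36 ± 0.20 in the KO (edgeR adjusted p = 0.149) and -0.05 ± 0.20 in the KI cells (edgeR adjusted p = 0.868). Without WT 8 the KO value was -0.56 and passed (edgeR adjusted p = 0.00171), as did -0.38 with a replicate block (edgeR adjusted p = 0.0144). The KO level was below the KI level by 0.29 on the log2 scale (edgeR adjusted p = 0.0354), although the libraries overlapped. That call was lost without KO 7, KO 8, KI 6 or KI 8, with library totals and with all 11 libraries in 1 fit. It was also lost with a replicate block (edgeR adjusted p = 0.0621) and with the length offset (-0.14, edgeR adjusted p = 0.115). In GENCODE the exons of the pair share 112 bases on opposite strands, and reads there cannot be told apart without strand.

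The ratio of *Hspd1* to *Hspe1* counts within a library needs no scaling for library size, though it still holds differences that go with transcript length. It was 2.55, 2.83, 3.02 and 3.24 in the KO, 0.777, 0.912 and 1.77 in the WT and 2.53, 2.14, 2.47 and 1.84 in the KI libraries. The 3 groups did not overlap, and WT 8 lay near the lowest KI library. The mean log2 ratio was higher by 1.43 in the KO than in the WT and by 1.05 in the KI than in the WT cells (both exact permutation p = 0.0571, two-sided, the smallest that 4 against 3 libraries allow), and by 0.38 in the KO than in the KI cells (exact permutation p = 0.0286, two-sided, the smallest for 4 against 4). With adjustment over the 9 ratio comparisons made, these are 0.0735 each, so that none could pass 0.05 in this design. With an offset for transcript length in the fits, described further on, the fold changes of the 2 genes were apart by 0.93 in place of 1.47 in the KO against the WT, by 0.70 in place of 1.09 in the KI against the WT and by 0.21 in place of 0.38 in the KO against the KI cells.

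**Figure D2:**
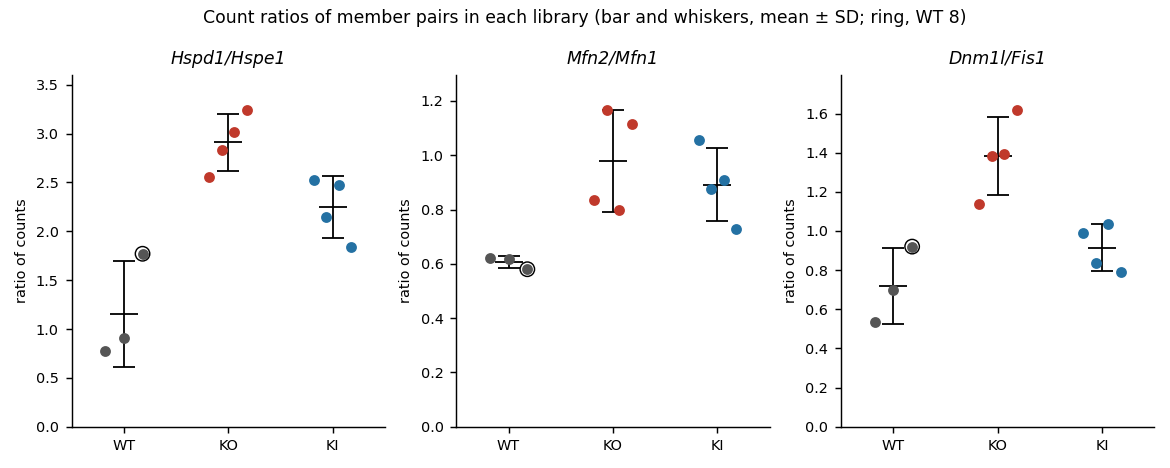
Ratio of the counts of *Hspd1* to *Hspe1*, *Mfn2* to *Mfn1* and *Dnm1l* to *Fis1* in each WT, KO and KI library, with mean and SD as bar and whiskers and a ring around WT 8. The *Hspd1* to *Hspe1* ratio stays at or below 1.77 in the WT libraries and reaches 3.24 in the KO.

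*Lonp1*, the protease and chaperone of the matrix (chr17:56614297-56626887, minus strand), had 223, 236, 211 and 236 CPM in the KO, 155, 164 and 184 CPM in the WT and 138, 139, 132 and 129 CPM in the KI libraries. No library of 1 group overlapped another. The KO cells had 1.33-fold the WT level (log2 fold change 0.41 ± 0.12, edgeR adjusted p = 0.0117) and 1.69-fold the KI level (0.75 ± 0.08, edgeR adjusted p = 1.21e-06). The KI cells lay at -0.32 ± 0.13 against the WT, which did not pass (edgeR adjusted p = 0.0589). It did pass in 5 of 17 fits, among them DESeq2 (adjusted p = 0.0122) and the length offset (-0.37, edgeR adjusted p = 0.0167).

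**Figure D3:**
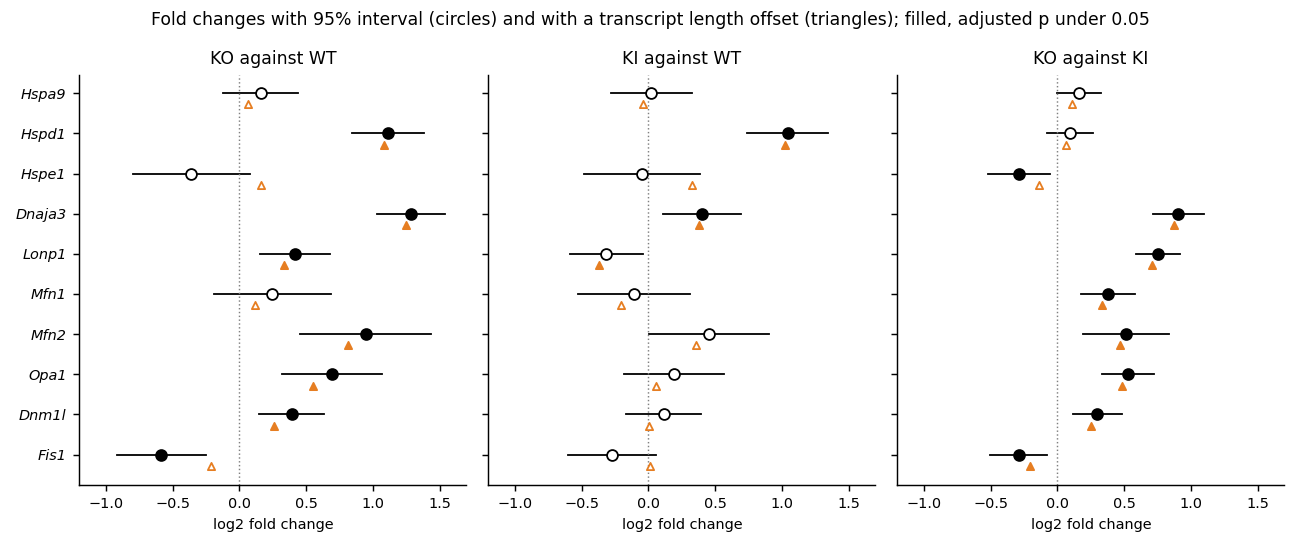
Log2 fold change of each member in the 3 comparisons, with circles and 95% intervals from the edgeR fit, triangles from the fit with an offset for transcript length, and filled symbols for an adjusted p under 0.05. *Dnaja3* is called in all 3 comparisons, and *Hspe1* changes side in the KO against the WT, from -0.36 to 0.16, when transcript length is taken into account.

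Of the fusion genes, *Mfn2* and *Opa1* rose in the KO against the WT cells, and *Mfn1* did not pass. *Mfn2* (chr4:147873599-147904704, minus strand) had 27.4, 38.0, 29.7 and 42.6 CPM in the KO, 12.4, 17.5 and 22.8 CPM in the WT and 28.3, 23.3, 26.0 and 19.1 CPM in the KI libraries. Every KO library lay above the WT libraries and 1 of the 4 KI libraries fell among them. The KO cells had 1.93-fold the WT level (log2 fold change 0.95 ± 0.22, edgeR adjusted p = 0.00404) and 1.43-fold the KI level (0.51 ± 0.15, edgeR adjusted p = 0.00938), while the KI cells did not pass against the WT (0.46 ± 0.21, edgeR adjusted p = 0.0941). Without WT 8 the KI value was 0.69 and passed (edgeR adjusted p = 0.00931).

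The table lists *Mfn2* in 2 entries, and most counts lie in the second. The first had 74, 101, 113 and 256 counts in the KO, 11, 16 and 44 in the WT and 36, 99, 105 and 65 in the KI libraries. The second had 903, 1182, 877 and 1597 counts in the KO, 268, 417 and 600 in the WT and 975, 746, 890 and 563 in the KI libraries. Both were higher in the KO than in the WT cells, by 1.89 ± 0.47 in the first (edgeR adjusted p = 0.00721) and by 0.86 ± 0.22 in the second (edgeR adjusted p = 0.00779) on the log2 scale, in a fit over 14125 table entries of which 53.1% were called. Neither entry passed in the KI against the WT cells (edgeR adjusted p = 0.0712 and 0.161). How reads were divided between the entries is not given in the sources used here, so the values of a single entry are less certain than their sum.

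*Opa1*, the fusion protein of the inner membrane (chr16:29579334-29654884, plus strand), had 71.2, 81.0, 75.9 and 84.8 CPM in the KO, 37.4, 42.9 and 62.6 CPM in the WT and 53.3, 56.2, 59.0 and 48.9 CPM in the KI libraries. The KO libraries stood above all others, and WT 8 exceeded the 4 KI libraries. The KO cells had 1.62-fold the WT level (log2 fold change 0.70 ± 0.17, edgeR adjusted p = 0.00511) and 1.44-fold the KI level (0.53 ± 0.09, edgeR adjusted p = 0.000202), and the KI cells differed from the WT by 0.19 ± 0.17 (95% interval -0.18 to 0.56, edgeR adjusted p = 0.398), or by 0.44 without WT 8 (edgeR adjusted p = 0.0128). The promoter window of *Opa1* is the only one among the 9 members that holds the letters GCGCATGC (GCATGCGC on the other strand), which are bound by NRF1, a regulator of nuclear genes for mitochondria. They occur in 2.26% of all windows, and here they overlap on both strands, 59 to 50 bases before the start (in capitals, chr16:29579265-29579294, plus strand, GRCm38.p6).
Opa1, plus strand: gtggctccccGCGCATGCGCatgtcatccg

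*Mfn1* (chr3:32529465-32579239, plus strand) had 32.7, 32.5, 37.1 and 38.2 CPM in the KO, 20.0, 28.3 and 39.3 CPM in the WT and 26.8, 26.6, 28.6 and 26.3 CPM in the KI libraries. The WT libraries covered the values of all the others, with WT 8 the highest of the 11. It did not pass in the KO against the WT (0.25 ± 0.20 on the log2 scale, 95% interval -0.19 to 0.68, edgeR adjusted p = 0.319) or in the KI against the WT cells (-0.11 ± 0.19, edgeR adjusted p = 0.672). Without WT 8 the KO value was 0.55 and passed (edgeR adjusted p = 0.00939), and with a replicate block it was 0.36 and passed (edgeR adjusted p = 0.0423). The KO cells were above the KI cells without overlap, by 1.30-fold (0.38 ± 0.10, edgeR adjusted p = 0.00349).

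Within a library, the *Mfn2* to *Mfn1* count ratio was 0.836, 1.17, 0.800 and 1.11 in the KO, 0.621, 0.617 and 0.580 in the WT and 1.05, 0.876, 0.908 and 0.727 in the KI libraries. All WT libraries lay below all others. Unlike the levels of the genes themselves, the ratio was nearly the same in the 3 WT libraries. The mean log2 ratio was higher by 0.67 in the KO and by 0.54 in the KI than in the WT cells (both exact permutation p = 0.0571, two-sided, adjusted 0.0735), and the KO and KI cells, which overlapped, differed by 0.13 (exact permutation p = 0.486, two-sided).

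Of the fission genes, *Dnm1l* rose in the KO cells and *Fis1* fell, the latter in a call that an offset for transcript length or library totals removed. *Dnm1l*, the dynamin that constricts mitochondria (chr16:16312230-16358959, minus strand), had 89.3, 91.4, 92.2 and 96.3 CPM in the KO, 64.0, 69.7 and 74.3 CPM in the WT and 74.4, 77.0, 81.8 and 67.5 CPM in the KI libraries. The KO libraries lay above all WT and KI libraries, which overlapped each other. The level in the KO cells was 1.31-fold that of the WT (log2 fold change 0.39 ± 0.11, edgeR adjusted p = 0.0114) and 1.23-fold that of the KI cells (0.30 ± 0.09, edgeR adjusted p = 0.00781), and the KI cells differed from the WT by 0.12 ± 0.13 (edgeR adjusted p = 0.501).

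*Fis1*, an outer membrane receptor of the fission machinery (chr5:136953275-136966234, plus strand), had 78.6, 66.0, 66.2 and 59.5 CPM in the KO, 120, 99.7 and 80.7 CPM in the WT and 75.0, 91.9, 78.8 and 85.5 CPM in the KI libraries. All KO libraries were below the WT libraries, with KO 5 close to WT 8. The KO cells had 0.667-fold the WT level (log2 fold change -0.58 ± 0.15 for the KO against the WT, edgeR adjusted p = 0.00687), and with the length offset it stood at -0.21 and was not called (edgeR adjusted p = 0.0738), nor with library totals (-0.15, edgeR adjusted p = 0.316). The KI cells did not pass against the WT (-0.27 ± 0.15, edgeR adjusted p = 0.165). The KO was below the KI level by 0.29 on the log2 scale (edgeR adjusted p = 0.0231). That call was lost without KO 6, KO 7, KO 8 or KI 6, with library totals, with a replicate block and with all 11 libraries in 1 fit. The *Dnm1l* to *Fis1* count ratio was 1.14 to 1.62 in the KO, 0.535 to 0.920 in the WT and 0.789 to 1.04 in the KI libraries, so that the KO cells stood apart from both other groups. The mean log2 ratio was higher by 0.97 in the KO than in the WT (exact permutation p = 0.0571, two-sided) and by 0.60 in the KO than in the KI cells (exact permutation p = 0.0286, two-sided), each 0.0735 after adjustment. With the length offset the fold changes of *Dnm1l* and *Fis1* were apart by 0.47 in place of 0.98 in the KO against the WT and by 0.46 in place of 0.59 in the KO against the KI cells.

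Counting the members without overlap between libraries gives 7 of 10 for the KO against the WT (55.3% of all tested genes), 3 of 10 for the KI against the WT (44.7%) and 6 of 10 for the KO against the KI cells (48.6%). By the median of the members the spread was widest among the WT libraries, with an SD of 15.4% of the mean (5.56 to 33.1%). It was 6.39% in the KO (1.49 to 20.7%) and 7.95% in the KI cells (3.52 to 16.3%). For *Dnaja3* and *Dnm1l* it was wider in the KI (8.84 and 7.94%) than in the WT cells (5.56 and 7.42%).

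Per kilobase of the longest protein-coding transcript, which allows the genes to be compared with each other, *Hspe1* was the most abundant member in the WT cells, at 267 CPM per kb, followed by *Hspa9* at 158, *Fis1* at 105, *Hspd1* at 88.7 and *Lonp1* at 56.8 CPM per kb. *Dnm1l* (17.5 CPM per kb) and *Dnaja3* (15.3 CPM per kb) came next, and the fusion genes *Opa1* (7.64), *Mfn1* (6.40) and *Mfn2* (4.05 CPM per kb) were last. The libraries of the neighbours *Hspe1* and *Hspa9*, *Fis1* and *Hspd1*, *Dnm1l* and *Dnaja3*, *Opa1* and *Mfn1*, and *Mfn1* and *Mfn2* overlapped on this scale, and the other neighbours did not. In the KO cells *Hspd1* (194 CPM per kb) moved up to stand between *Hspe1* (211), whose libraries it overlapped, and *Hspa9* (179). *Dnaja3* (37.7) then stood above *Dnm1l* (23.3 CPM per kb). *Mfn2* (7.93) and *Mfn1* (7.71 CPM per kb) stood at the same level within their spread. These levels hold the differences by transcript length described next, which bear most on the short transcripts of *Hspe1* (0.774 kb) and *Fis1* (0.948 kb).

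Transcript length moved with the results. The tested genes with transcripts of at most 1 kb had a median log2 fold change of -0.56 in the KO against the WT (615 genes), and those over 6 kb a median of 0.14 (1583 genes). In the KI against the WT cells the same medians were -0.37 and 0.13, and in the KO against the KI cells -0.17 and 0.05. The libraries of 1 line differed along this axis too, since the short genes lay 0.62 above their mean over all libraries in WT 5-6, 0.34 above it in WT 7 and 0.04 above it in WT 8 on the log2 scale. *Hspe1* (0.774 kb) and *Fis1* (0.948 kb) are the members under 1 kb, and their fold changes of -0.36 and -0.58 in the KO cells lie near the median of that length. With an offset for transcript length in each library, *Fis1* was not called, as given above, and *Hspe1* changed sign to 0.16 (edgeR adjusted p = 0.280). The other 6 calls of the KO against the WT stayed, at 1.25 for *Dnaja3*, 1.09 for *Hspd1*, 0.81 for *Mfn2*, 0.55 for *Opa1*, 0.33 for *Lonp1* and 0.26 for *Dnm1l* (edgeR adjusted p at most 0.0325).

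**Figure D4:**
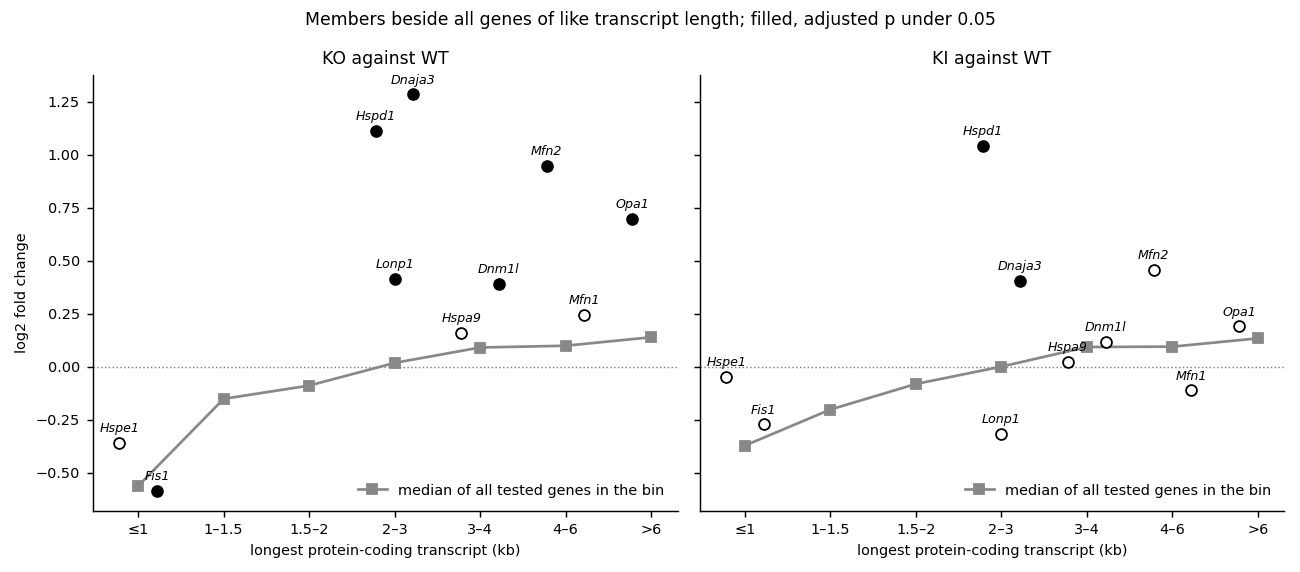
Log2 fold change of each member against the length of its longest protein-coding transcript, for the KO and the KI against the WT, with the median of all tested genes of each length as grey squares and filled points for an adjusted p under 0.05. The grey medians run from -0.56 to 0.14 in the KO, where *Fis1* and *Hspe1* lie near them and *Dnaja3* and *Hspd1* far above.

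The chromosome moved with the results as well. *Dnaja3*, *Opa1* and *Dnm1l* lie on chromosome 16, whose 373 tested genes had a median log2 fold change of 0.49 in the KO against the WT, -0.03 in the KI against the WT and 0.50 in the KO against the KI cells. Relative to that median, the KO against WT values were 0.80 for *Dnaja3*, 0.21 for *Opa1* and -0.10 for *Dnm1l*. The KO against KI values were 0.40, 0.02 and -0.20 relative to theirs. In the KO against the WT the medians of the chromosomes of *Hspd1* (-0.10), *Fis1* (0.01), *Mfn1* (0.13), *Lonp1* (0.14) and *Mfn2* (0.30) were smaller, and that of *Hspa9* was -0.32. What part the chromosome has in the values of these genes was not tested.

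Around the members, 104 other genes of the same biology were looked at in 8 lists, of which 101 were tested. In the KO against the WT 31 rose and 30 fell, with a median log2 fold change of -0.04. That is 30.7% and 29.7%, near the 26.7% and 28.4% of all genes. In the KI against the WT 21 rose and 21 fell, 20.8% each, near the 21.2% and 21.0% of all genes. The KO exceeded the KI cells in 36 and lay below them in 20. In the KO against the KI cells that is 35.6% higher and 19.8% lower, where all genes had 27.0% each way. The counts of each list below are to be read beside these shares of all genes.

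Of 11 co-chaperones and folding factors, 4 rose in the KO cells and 4 fell. *Trap1*, the mitochondrial Hsp90, rose from 101 to 148 CPM (log2 fold change 0.53 ± 0.12, edgeR adjusted p = 0.00374), and *Clpb*, *Dnlz*, an escort of HSPA9, and *Tufm*, the elongation factor of mitochondrial translation, rose by 0.87, 0.91 and 1.10. *Grpel1*, the nucleotide exchange factor of HSPA9, fell by 0.44 (edgeR adjusted p = 0.0299), and *Hscb*, which hands iron-sulfur clusters to HSPA9, by 1.06. *Timm44*, which ties HSPA9 to the import channel, fell by 0.62, and *Dnajc15* fell by 0.43. *Hscb* also fell in the KI cells, by 1.02, together with *Dnajc15* and *Pam16*, and *Tufm* rose there by 0.68.

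Of 13 proteases and processing enzymes, 6 rose and 3 fell in the KO cells. *Oma1*, which cuts OPA1 under stress, rose by 0.64 ± 0.17 (edgeR adjusted p = 0.00772), and *Yme1l1*, which cuts OPA1 in resting mitochondria, fell by 0.62 ± 0.20 (edgeR adjusted p = 0.0215). In the KI cells *Yme1l1* fell by 0.96, whereas *Oma1* stood at 0.47 and did not pass (edgeR adjusted p = 0.123). *Clpp*, the other soluble protease of the matrix beside LONP1, stood at 0.02 in the KO and 0.20 in the KI cells, and its unfolding partner *Clpx* fell in both, by 0.55 and 0.51.

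Of 17 tested adaptors of fusion and fission, 4 rose and 5 fell in the KO cells. *Mff*, the main receptor of DNM1L, had 127, 99.2, 109 and 91.5 CPM in the KO, 243, 209 and 139 CPM in the WT and 114, 111, 102 and 131 CPM in the KI libraries. It fell in both derived lines, by 0.90 in the KO (edgeR adjusted p = 0.00178) and by 0.78 in the KI cells (edgeR adjusted p = 0.00385). *Mief1* and *Mief2*, the other receptors, stood at 0.36 and -0.38 in the KO without passing, and *Mief2* fell by 0.78 in the KI cells. *Miga1*, a promoter of fusion that acts through a phospholipase, had 0.575 to 0.912 CPM in the KI, 7.14 to 8.55 CPM in the KO and 13.5 CPM or more in the WT libraries. It fell by 4.31 in the KI (edgeR adjusted p = 7.17e-08) and by 0.96 in the KO cells (edgeR adjusted p = 0.000395), and its relative *Miga2* rose in both, by 0.40 and 0.92.

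Of 17 import genes, 3 rose and 7 fell in the KO cells. *Tomm40*, the channel of the outer membrane, rose from 39.4 to 131 CPM (log2 fold change 1.72 ± 0.12, edgeR adjusted p = 1.12e-06) and *Timm50*, a receptor of the inner membrane, by 1.18. *Tomm20*, the receptor for presequences, fell by 1.16 (edgeR adjusted p = 0.000107) and *Timm23*, the channel of the inner membrane, by 0.56, while *Tomm70a* stood at 0.03. In the KI cells *Tomm40* rose by 0.98 and *Timm50* by 0.62, *Timm23* fell by 0.66, and *Tomm20* stood at -0.31 without passing (edgeR adjusted p = 0.163).

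The transcription factors and sensors of the mitochondrial stress response were led by *Atf5*, the factor held to drive the mitochondrial unfolded protein response in mammals. It had 307, 338, 270 and 319 CPM in the KO, 30.4, 24.9 and 29.5 CPM in the WT and 53.2, 59.8, 46.9 and 54.5 CPM in the KI libraries. It rose by 3.43 ± 0.14 in the KO (edgeR adjusted p = 6.18e-08) and by 0.92 ± 0.14 in the KI cells (edgeR adjusted p = 0.000274) on the log2 scale. *Ddit3*, which encodes CHOP, rose by 1.10 in the KO and stood at -0.16 in the KI cells, and *Atf4* stood at 0.32 (edgeR adjusted p = 0.0547) and -0.10. Of the 9 genes of this list 5 rose and 1 fell (*Atf3*, by 0.57) in the KO cells. *Hsf1* and *Hsf2*, which encode heat shock factors, rose in both lines, *Hsf1* from 14.9 to 31.5 CPM in the KO (log2 fold change 1.05, edgeR adjusted p = 0.000181) and to 26.2 CPM in the KI cells (0.81, edgeR adjusted p = 0.000954), and *Hsf2* by 0.94 and 0.64. The members with a heat shock element before their start, shown above, were *Hspd1*, which rose in both lines, and *Hspe1*, which did not pass in either.

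At the contacts with the endoplasmic reticulum, where MFN2 also acts, 3 of 13 genes rose and 3 fell in the KO cells. *Mcu*, the calcium channel of the inner membrane, rose by 1.64 ± 0.20 (edgeR adjusted p = 6.29e-05) and *Rmdn3* by 0.59, while *Vdac1* fell by 0.65, *Vdac2* by 0.59 and *Itpr1* by 0.74. *Mcu* rose in the KI cells too, by 0.74, and *Vdac1* and *Vapb* fell. Of 9 tested mitophagy genes 6 fell and *Phb2* rose in the KO cells (28.4% and 26.7% of all genes), and 5 fell and none rose in the KI cells (21.0% and 21.2% of all genes), where at an unadjusted p under 0.05 none rose either. *Bnip3*, a receptor that brings autophagosomes to mitochondria, had 314 to 490 CPM in the KO, 1221 to 2228 CPM in the WT and 446 to 600 CPM in the KI libraries. It fell by 2.25 in the KO (edgeR adjusted p = 2.31e-05) and by 1.91 in the KI cells (edgeR adjusted p = 2.78e-05), and *Pink1* fell by 0.32 and 0.65. Of 12 biogenesis genes 5 rose in the KO cells, among them *Polrmt*, the mitochondrial RNA polymerase, by 1.14 and *Polg*, the mitochondrial DNA polymerase, by 1.04, and *Esrra* fell by 0.94. *Tfam*, *Ppargc1a* and *Nrf1*, the factors usually read for biogenesis, stood at -0.11, -0.33 and 0.07 and did not pass. Other genes of the list had a higher mean level in the KO than in the WT cells, among them *Gabpa* (85.1 against 53.6 CPM), *Cs* (197 against 114 CPM) and *Ppargc1b* (3.19 against 1.41 CPM).

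**Figure D5:**
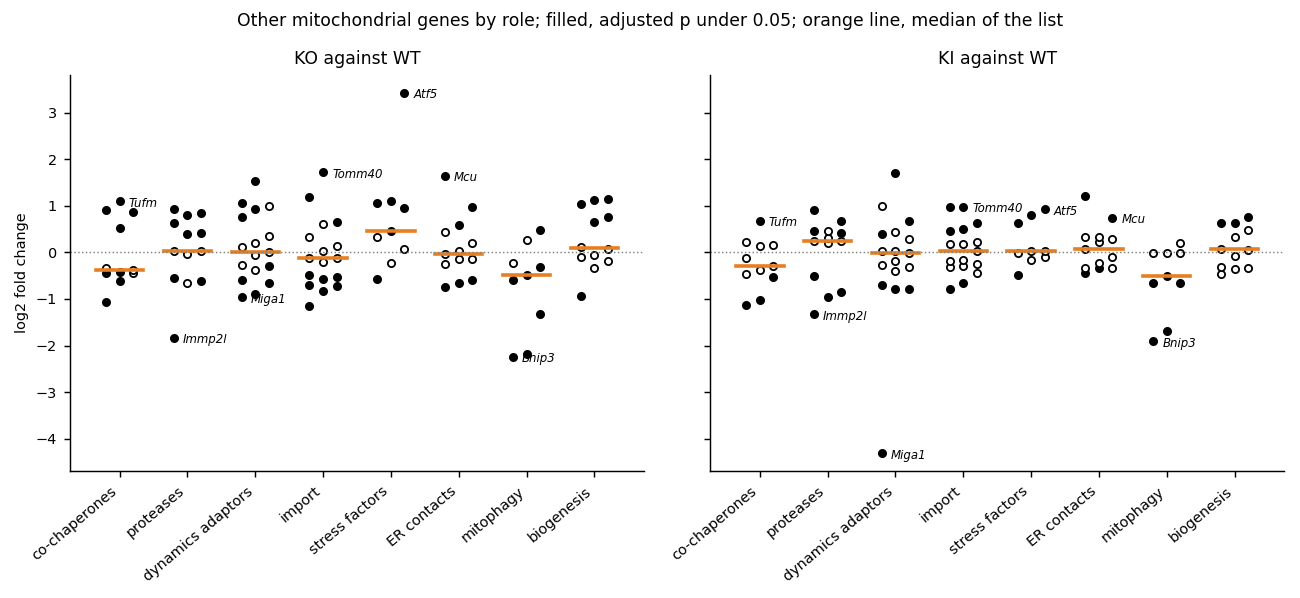
Log2 fold change of the 101 tested genes of 8 further mitochondrial lists in the KO and the KI against the WT, with filled points for an adjusted p under 0.05 and an orange line at the median of each list. *Atf5* stands at 3.43 in the KO and *Miga1* at -4.31 in the KI cells, while the list medians lie between -0.51 and 0.46.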

How the data were processed

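Polyadenylated RNA of AML12 cells was sequenced in 4 KO, 3 WT and 4 KI libraries. The authors deposited unnormalized counts per table entry, which their sequencing provider made from cleaned and mapped reads. The submitters' processing notes name HISAT2, TopHat2, Bowtie2 and StringTie, without their roles, and the genome build is not given in the sources used here. The library protocol marks no strand. A total of 11 FPKM columns, whose decimal points are missing, and the columns of the authors' own comparisons (fold changes, FDR values and calls) were not used, nor were 10 lines with broken fields.

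Counts were summed by gene name. Total counts were 30380360 to 38422243 in the KO, 29840366 to 30364098 in the WT and 32360709 to 35335070 in the KI libraries. One newly assembled entry took 11.3 to 17.1% of the WT, 4.32 to 6.44% of the KO and 4.82 to 9.12% of the KI counts, so the libraries were scaled by TMM. Each comparison was fitted with the libraries of its 2 groups with edgeR 4.0.16 (quasi-likelihood, robust, filter by expression, prior count 2) in R 4.3.3, with DESeq2 1.42.0 and limma 3.58.1 as alternatives, and an adjusted p-value under 0.05 was a call. Levels in CPM use TMM factors over all 11 libraries, and fold changes come from the fits. The tests were checked on simulated data with the same dispersion for all genes, as many genes up as down and no trend with transcript length. That check therefore does not cover the length trend or the uneven library composition of these data. Replicates differed by more than counting noise. Ratios were tested by exact permutation in scipy 1.17.1. Positions and lengths are those of GENCODE M21 on GRCm38, matched by gene symbol, and a length was found for 89.6% of the genes tested in the KO against the WT. Upstream sequences are from RefSeq.

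The members, lists and tests were chosen with earlier results of these data known, and the offset for transcript length was chosen after seeing the data. Named are all members, the first 3 genes of each other list, the calls of a list with 5 or fewer calls in 1 direction, and the 3 genes most like *Hspa9* and *Dnaja3* by root mean square difference of centred log2 levels (0.1 CPM added). The values of 1 gene that this rule names are not reported here.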

Additional observations from a re-analysis of the deposited data

How the results depend on the processing

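The calls of *Hspd1*, *Dnaja3*, *Lonp1*, *Mfn2*, *Opa1* and *Dnm1l* in the KO against the WT kept their direction and their call in all 17 fits, the alternatives being median ratio factors, library totals, DESeq2, limma, no filter, all 11 libraries in 1 fit, a replicate block, dropping the 2 largest newly assembled entries or each library in turn, and the length offset. *Hspd1* in the KI against the WT did so too. Leaving out each library gave 7 to 10 members called in the KO against the WT (10 without WT 8), 1 to 5 in the KI against the WT (5 without WT 8, 1 without WT 7, KI 5, KI 6 or KI 7) and 6 to 8 in the KO against the KI cells. The other mitochondrial genes called ranged from 44 to 72, 32 to 58 and 47 to 57. In both comparisons with the WT they too were most often called without WT 8 (72 and 58, against 61 and 42 in the main fits). The share of all genes called is not given for these fits, so the member counts describe the settings and not the members. All 11 libraries in 1 fit left 5 members called in the KO against the KI cells, and 43 of the other mitochondrial genes (56 in the main fit). The cause was not tested. With library totals the median of all genes was 0.38 in the KO and 0.30 in the KI against the WT, where the main fits had -0.03 and -0.02. With library totals *Hspe1* stood at 0.087 and 0.31, *Mfn1* at 0.18 and *Fis1* at 0.076 in the KI (in the KO -0.15, not called), values to be read against those medians. The length offset turned *Hspe1* to 0.16 in the KO and 0.33 in the KI, *Fis1* to 0.010 and *Hspa9* to -0.044 in the KI cells. In the KI against the WT, leaving out 1 library moved *Hspe1* between -0.28 and 0.16, *Hspa9* between -0.044 and 0.12 and *Mfn1* between -0.32 and 0.16. None of these turned values was called. Counting the Mfn2 entries apart changed no count of members called.

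Deviations of same-numbered libraries from the means of their lines correlated across genes at -0.19 to 0.21, with the highest value for KO 8 and WT 8. Short genes were lowest in library 8 of the KO (-0.37) and of the WT (0.04), but highest there in the KI (0.095). Whether the numbers mark something shared was not tested, and the main fits did not use them as pairs. A fit with a replicate block called 9 members in the KO against the WT (*Hspe1* and *Mfn1* beside the 7 of the main fit), 1 in the KI against the WT and 6 in the KO against the KI cells. Of the other mitochondrial genes it called 72, 34 and 47, where the main fits called 61, 42 and 56.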
